A study of Mus musculus with 7 samples.

Results

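The 10 Toll-like receptor genes Tlr1, Tlr2, Tlr3, Tlr4, Tlr5, Tlr6, Tlr7, Tlr9, Tlr11 and Tlr13 were followed across 7 one-colour Agilent arrays of cultured mouse dendritic cells. They were picked by name, through the RefSeq accession of their probes, and 11 probes of the array carry one of them. All 10 were among the 14549 genes tested, of 20018 genes that could be named in this way. Every signal is given as log2 of the scanner's processed signal minus the 75th percentile of its array, so 0 is the level of that percentile. Probes differ in how well they bind, so the signal of a gene was compared between arrays and not with that of other genes. The summed signals of marker lists are the exception, and a gene's share of such a sum is one of signal, not of RNA.

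The tested group held 3 arrays labelled Gata2 knockout, from Gata2(f/f)/ER-Cre mice, and the other group held 4 control arrays, from Gata2(f/f) mice without the Cre. Both were of C57BL/6 background, carried the floxed Gata2 gene and received tamoxifen between day 1 and day 10. Common myeloid progenitors carrying CD45.2 were sorted from bone marrow on days 20 to 22 and grown into dendritic cells with FLT3-L at 200 ng/ml, on bone marrow feeder cells of SJL (CD45.1+) mice. The labels used here give neither the promoter that drives the Cre, nor the animals' ages, nor whether animals were pooled, nor how dendritic cells were parted from feeder cells. Nothing in them states that the replicates are separate animals or cultures, and the p-values therefore rest on the spread between these arrays, which may be technical. The dendritic cell genes Flt3, Itgax, Zbtb46, H2-Ab1 and Cd74 were well above background on all 7 arrays, and 0 of these 5 passed the test between groups, also at an unadjusted p under 0.05.

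Gata2, the targeted gene, was 7.08-fold brighter in the arrays labelled knockout (log2 difference 2.82, SE 0.17, limma adjusted p = 0.000153), which goes against the label if the probe lies in the deleted stretch. Its place relative to that stretch was not known here, so the labels could not be checked with it, and each direction below is that of the arrays as labelled. Each group filled a slide row of its own, so row, Cre and group cannot be told apart. The median of the negative control spots was -8.78 ± 0.41 on the 3 arrays labelled knockout and -7.59 ± 0.14 (mean ± SD) on the 4 controls, so the background was not level between the groups.

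Toll-like receptors are membrane proteins of the innate immune system. An ectodomain of leucine-rich repeats binds a microbial molecule, and a cytoplasmic TIR domain then recruits the adaptors MyD88 or TRIF, which lead to NF-kappa-B, interferon regulatory factors and the transcription of cytokines. TLR1, TLR2, TLR4, TLR5 and TLR6 act at the cell surface on bacterial lipids, lipopolysaccharide and flagellin. TLR3, TLR7, TLR9, TLR11 and TLR13 act in endosomes, mostly on nucleic acids, and reach them with the chaperone UNC93B1. Dendritic cell subsets differ in their receptors: in mice, plasmacytoid cells are known for TLR7 and TLR9 and type 1 conventional cells for TLR3 and TLR11.

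The stretches of 250 bases before the start of 3 members are shown because they carry the ends of the comparison: Tlr5, the one member with a higher signal on every array labelled knockout than on any control, Tlr2, the member with the smallest p-value, and Tlr9, the member with the smallest difference. They are RefSeq sequences of build GRCm38.p6, written 5′ to 3′ on the strand of the gene, with GATA motifs in capitals. The start is the one used for each RefSeq window, which can lie inside the annotated gene. The Tlr2 gene on the minus strand ends at chr3:83841824, so most of its stretch lies inside the gene. Tlr5 begins at chr1:182954752, so the end of its stretch does too. The motifs searched were AGATAA, its variant ending in G, AGATAG, the corresponding TGATAA, and its variant ending in G, TGATAG, on both strands.
Tlr5, chr1:182954538-182954787, plus strand: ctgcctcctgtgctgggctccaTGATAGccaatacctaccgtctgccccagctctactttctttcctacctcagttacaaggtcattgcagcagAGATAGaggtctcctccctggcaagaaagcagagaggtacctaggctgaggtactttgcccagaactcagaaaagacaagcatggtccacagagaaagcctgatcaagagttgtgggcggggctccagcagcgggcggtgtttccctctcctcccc
Tlr2, chr3:83841609-83841858, minus strand: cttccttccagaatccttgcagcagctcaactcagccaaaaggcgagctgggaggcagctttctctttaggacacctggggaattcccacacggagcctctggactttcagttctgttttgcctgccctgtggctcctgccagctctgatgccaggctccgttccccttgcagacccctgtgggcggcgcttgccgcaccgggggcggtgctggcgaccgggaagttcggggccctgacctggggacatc
Tlr9, chr9:106222348-106222597, plus strand: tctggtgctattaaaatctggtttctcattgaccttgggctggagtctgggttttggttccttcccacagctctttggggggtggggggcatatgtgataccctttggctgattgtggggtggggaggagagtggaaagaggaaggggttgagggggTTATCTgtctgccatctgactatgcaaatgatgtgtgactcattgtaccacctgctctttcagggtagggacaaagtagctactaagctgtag

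The Tlr5 stretch held 2 matches, beginning 228 and 156 bases before the start, and that of Tlr9 held 1, beginning 93 bases before it. That of Tlr2, mostly inside the annotated gene, held 0. The RefSeq table had windows for 8 of the 10 members, without Tlr4 and Tlr7. Among its 10 windows for these members 5 held a motif, and 26.5% of all 32851 windows of this length did. A match is only a run of letters, and binding was not measured here.

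No member passed the test between the groups, and the median difference of the 10 members was -0.29, against -0.045 over all genes tested. With limma, 0 of 10 members were called higher and 0 called lower at an adjusted p under 0.05, where 1.49% of all genes tested were called higher and 1.38% lower, 2.87% in either direction. At an unadjusted p under 0.05, Tlr2 and Tlr13 were lower in the arrays labelled knockout, 2 of 10 members, against 7.35% of all genes. Tlr5 was the member higher at that level, where 6.14% of all genes were. It passed the filter on dim probes through the arrays labelled knockout alone, so its direction supports nothing. Adjusted p over the 10 members ran between 0.162 and 0.967. The difference lay below 0 for 7 of the 10 members and for 58.0% of all genes, and the count of 7 was the same under each other scaling of the arrays. Single arrays moved that count. It was 6 of 10 without control replicate 4, and 8 of 10 without control replicate 2 or with array weights. Without replicate 1 or 2 labelled knockout, it was 8 of 9 members tested. For 8 members, all but Tlr3 and Tlr5, the 95% confidence interval of the difference lay within 2-fold either way.

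**Figure D1:**
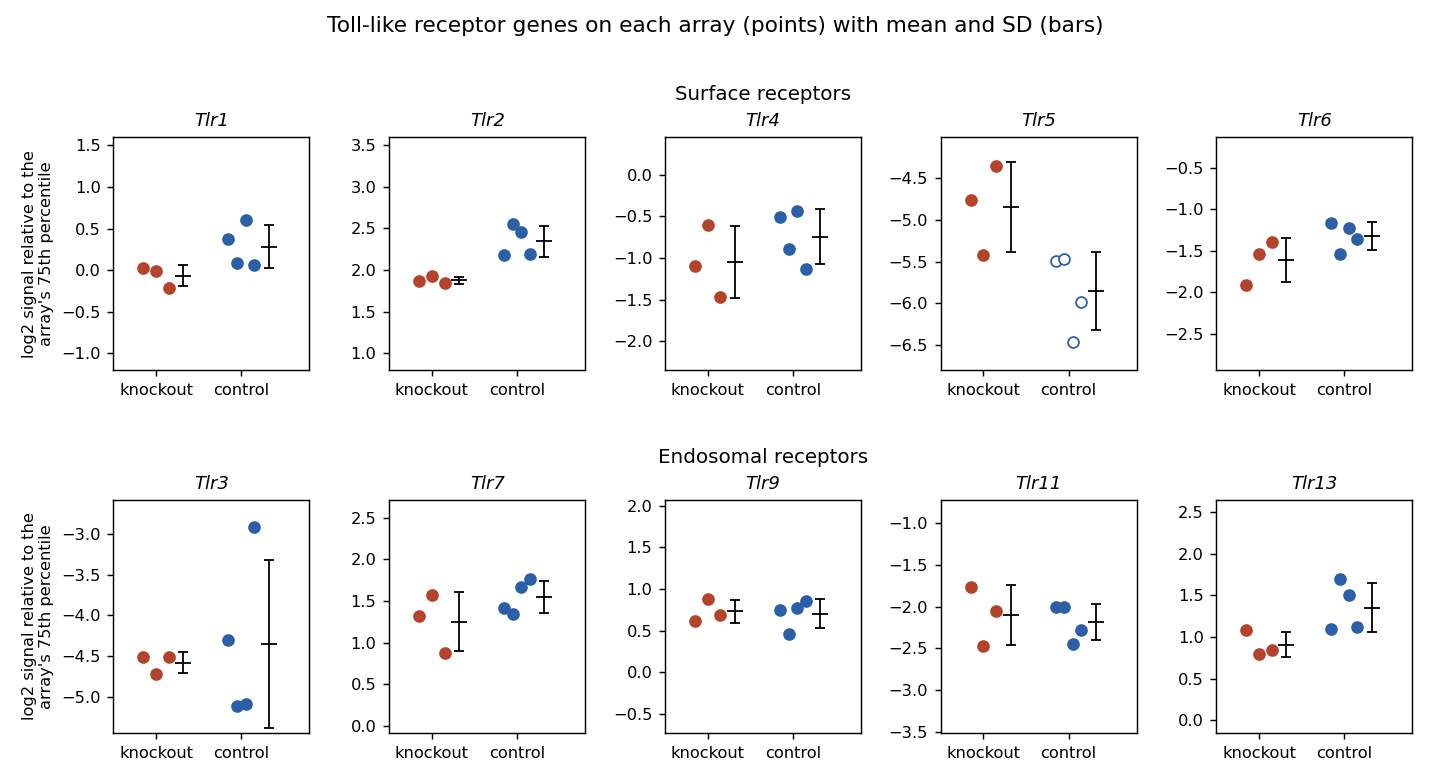
Log2 signal of each Toll-like receptor gene relative to the array's 75th percentile, surface receptors in the upper row and endosomal receptors in the lower, with the 3 arrays labelled knockout left of the 4 controls, a bar for mean and SD, and open points for spots not well above background. The groups lie apart for Tlr5 (higher) and for Tlr1, Tlr2 and Tlr13 (lower), and the 4 open points of Tlr5 are all controls. Over all genes tested, 5.77% lie apart with the arrays labelled knockout higher and 8.08% with them lower.

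Among the surface receptors, Tlr2 had the smallest p-value of the family. TLR2 recognises bacterial lipoproteins as a partner of TLR1 or TLR6. Its probe is printed on 10 spots of each array, whose log2 signals had an SD between 0.044 and 0.096 within an array after 3 outlier spots in all were left out. Tlr2 read 1.87, 1.92 and 1.84 on the arrays labelled knockout, against 2.18, 2.55, 2.46 and 2.20 on the controls. All 3 arrays labelled knockout lay below all 4 controls. The log2 difference was -0.47 (95% interval -0.79 to -0.15, limma adjusted p = 0.162), 1.38-fold lower, and did not pass the test.

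The genes of both TLR2 partners had differences below 0 as well. Tlr1, whose product forms the receptor for triacylated lipopeptides with TLR2, read 0.031, -0.010 and -0.21 on the arrays labelled knockout, against 0.38, 0.090, 0.61 and 0.064 on the controls. The groups lay apart by a margin far smaller than the spread of the controls. Its difference was -0.35 (interval -0.73 to 0.040, adjusted p = 0.427). Tlr6, whose product serves diacylated lipopeptides, ranged between -1.90 and -1.39 in the arrays labelled knockout and between -1.54 and -1.17 in the controls, with overlap. Its difference was -0.29 (interval -0.67 to 0.091, adjusted p = 0.509). Tlr1, Tlr2 and Tlr13 were the members whose groups lay apart with the arrays labelled knockout lower, 3 of 10, where 8.08% of all genes did so.

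Tlr4, the gene of the lipopolysaccharide receptor, varied more between arrays of one group than between the groups. It read -1.09, -0.60 and -1.47 on the arrays labelled knockout, against -0.51, -0.89, -0.44 and -1.14 on the controls. Replicate 2 labelled knockout lay among the highest arrays and control replicate 4 among the lowest. The difference was -0.31 (interval -0.88 to 0.27, adjusted p = 0.658), so a level 1.84-fold lower in the arrays labelled knockout is the far end of the interval.

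Tlr5, the gene of the flagellin receptor, went the other way. Its single spot read -4.76, -5.42 and -4.35 on the arrays labelled knockout, against -5.49, -5.47, -6.46 and -5.99 on the controls. All 3 arrays labelled knockout and 0 of 4 controls had it well above background, so its control level is only a bound. The groups lay apart with the arrays labelled knockout higher, as in 5.77% of all genes, but replicate 2 labelled knockout stood only just above the highest control. Tlr5 passed the filter through the arrays labelled knockout alone, which favours genes higher there, so its p-values and its separation are given as a description. The mean signal was 1.54-fold higher in the arrays labelled knockout, set against each control's own dimmest signal well above background or the probe's own value. With a floor common to all arrays it was 1.43-fold higher. Both are estimates from group means without sampling error, and neither is a lower limit. The interval of the measured difference reached down to 1.21-fold, and normexp background correction gave a log2 difference of only 0.14.

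The measured log2 difference of Tlr5 was 1.01 (interval 0.28 to 1.74, limma adjusted p = 0.189) and did not pass. With normexp background correction it was 0.14 (adjusted p = 0.704), and with array weights 1.28 (adjusted p = 0.0471), the only setting in which any member was called. Leaving out an array labelled knockout left Tlr5 untested, since it was then well above background on fewer than 3 arrays. The lowest signal among probes well above background averaged -6.65 ± 0.38 (SD) over the 3 arrays labelled knockout and -5.51 ± 0.13 (SD) over the 4 controls, so a spot had to be brighter to count as well above background on a control array. The size of the Tlr5 difference thus moved with the way background was treated.

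Of the endosomal receptors, Tlr13 stood furthest below 0. In mice TLR13 recognises a sequence of bacterial ribosomal RNA. It read 1.08, 0.80 and 0.84 on the arrays labelled knockout, against 1.10, 1.69, 1.50 and 1.13 on the controls. The groups lay apart, but replicate 1 labelled knockout and control replicate 1 were nearly equal. The difference was -0.45 (interval -0.87 to -0.027, adjusted p = 0.334).

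Tlr7 and Tlr9, whose products sense single-stranded RNA and unmethylated CpG DNA, did not pass either. Tlr7 has 2 probes, with differences of -0.29 and -0.23 (SE 0.20 and 0.16, adjusted p over all probes = 0.664 and 0.669), so both pointed the same way. The probe used for the gene read 1.32, 1.57 and 0.87 on the arrays labelled knockout, against 1.42, 1.35, 1.66 and 1.76 on the controls. The array furthest from the rest was replicate 3 labelled knockout. Tlr9 read 0.62, 0.88 and 0.68 on the arrays labelled knockout, against 0.74, 0.46, 0.76 and 0.85 on the controls, fully interleaved. Its difference of 0.025 had an interval between 1.24-fold lower and 1.28-fold higher. The plasmacytoid genes Siglech, Bst2, Tcf4, Ly6d and Ccr9 were well above background on all arrays, and 0 of these 5 passed. At an unadjusted p under 0.05, 1 of the 5 was lower, where 7.35% of all genes were. The summed linear signal of the 5 ran between 152 and 184 times the 75th percentile in the arrays labelled knockout. In the controls it ran between 168 and 203 times.

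Tlr3, the gene of the double-stranded RNA receptor, was the least precise member. It read -4.51, -4.72 and -4.51 on the arrays labelled knockout, against -4.31, -5.11, -5.09 and -2.91 on the controls. Control replicate 4 was far above the other arrays, and the SD was 0.12 in the arrays labelled knockout and 1.03 in the controls. The difference was -0.22 (interval -1.36 to 0.91, adjusted p = 0.898), and 0.26 without control replicate 4, so that this array sets its direction. Tlr11, the gene of the profilin receptor, read -1.76, -2.47 and -2.05 on the arrays labelled knockout, against -2.01, -2.01, -2.45 and -2.28 on the controls. The groups overlapped, with a difference of 0.091 (interval -0.37 to 0.55, adjusted p = 0.899).

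Of the 4 tested genes known from type 1 conventional dendritic cells, control replicate 4 was the highest or lowest control for Clec9a, Batf3 and Irf8. Any 1 of 4 arrays takes such a place for many genes, and the share over all genes was not counted. Clec9a read -1.52 on it, below -1.11 to -0.74 on the others. Batf3 read 2.14, above 1.52 to 2.05, and Irf8 read 6.113, only just above 6.020 to 6.106. Cadm1 read -0.85, within -1.03 to -0.39. The part of these cells in the Tlr3 value of this array was not tested. Of that list 0 of 4 tested genes passed, and Xcr1 was not tested. At an unadjusted p under 0.05, 1 of the 4 was lower, where 7.35% of all genes were. In these bulk samples, fewer cells of a type and less RNA per cell cannot be told apart.

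Set side by side, surface receptors had a median difference of -0.31, with 4 of 5 below 0, and endosomal receptors one of -0.22, with 3 of 5 below 0. The median over all genes tested was -0.045, with an interquartile range of -0.21 to 0.12. The difference between the surface and endosomal medians was not tested. The endosomal median changed sign, to 0.061, without control replicate 4, the array on which Tlr3 was high. The surface median stayed below 0 in each of the 22 other settings, between -0.44 and -0.24.

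**Figure D2:**
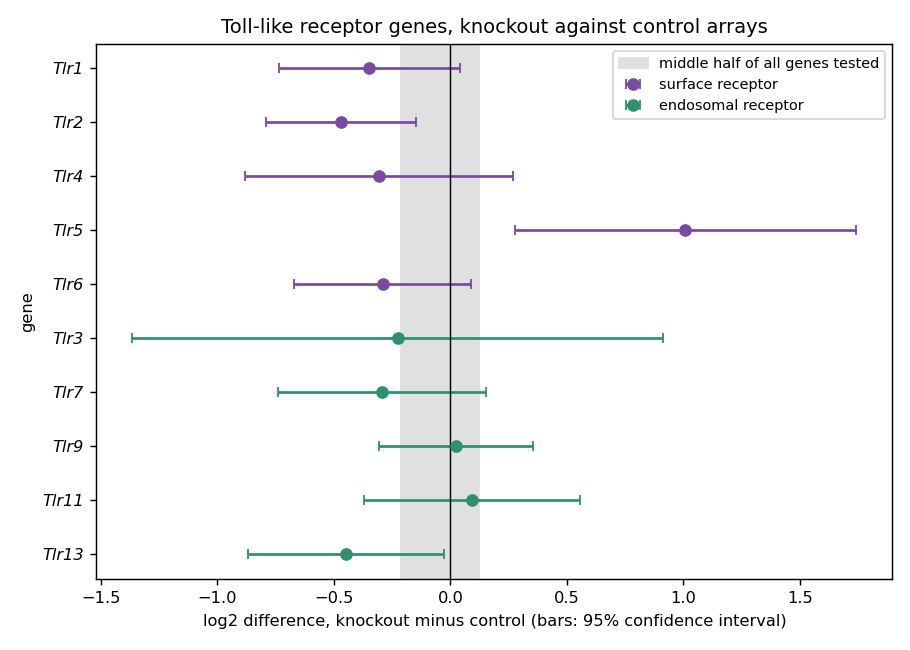
Log2 difference of each Toll-like receptor gene, arrays labelled knockout minus controls, with its 95% confidence interval; the grey band is the interquartile range of all genes tested, from -0.21 to 0.12. The intervals of Tlr2 and Tlr13 lie below 0 and that of Tlr5 above it, none passed after adjustment, and the interval of Tlr3 is the widest.

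Tlr8 and Tlr12, which are not among the 10 members, also had a probe on the array. Tlr12, whose product acts with TLR11 on profilin, was well above background on all 7 arrays and read 2.73, 2.42 and 2.74 in the arrays labelled knockout, against 2.70, 3.16, 2.66 and 2.49 in the controls. The groups overlapped and its difference was -0.13 (interval -0.55 to 0.30, adjusted p = 0.824). Tlr8 was well above background on 0 of 7 arrays and was not tested.

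Among the co-receptors and ligand carriers of the family, 3 of 6 genes, Cd14, Lbp and Cd36, fell in the arrays labelled knockout and 0 rose. Of all genes tested, 1.38% fell and 1.49% rose. The median of the list was -0.84, against -0.045 over all genes. Cd14 encodes the co-receptor that passes lipopolysaccharide to TLR4. It read -0.027, 0.14 and 0.046 on the arrays labelled knockout, against 1.67, 1.57, 1.65 and 1.75 on the controls. The spread within either group was small beside the gap between them, and Cd14 fell 3.05-fold (log2 difference -1.61, SE 0.12, limma adjusted p = 0.000234). Its call held in each of 22 other settings.

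Lbp, the lipopolysaccharide binding protein that loads CD14, read -0.31, -0.46 and -0.47 on the arrays labelled knockout, against 0.84, 0.33, 0.83 and 0.78 on the controls. It fell 2.16-fold (log2 difference -1.11, SE 0.16, adjusted p = 0.00893), and the call was lost without replicate 3 labelled knockout (adjusted p = 0.0537). Cd36, a scavenger receptor that hands diacylglyceride ligands to TLR2 and TLR6, read -5.78, -5.70 and -6.19 on the arrays labelled knockout, against -4.02, -4.15, -2.25 and -3.16 on the controls. It fell 5.64-fold (adjusted p = 0.0215), close to the background in the arrays labelled knockout. That call did not survive a floor common to all arrays (log2 difference -1.93, adjusted p = 0.119) and was lost when replicate 1, 2 or 3 labelled knockout or control replicate 4 was left out (adjusted p = 0.0732, 0.0602, 0.100 and 0.0580).

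The remaining genes of the list had smaller differences that did not pass, though 5 of the 6 were lower at an unadjusted p under 0.05, where 7.35% of all genes were. Ly96 and Ly86 also lay lower on every array labelled knockout than on any control, as 8.08% of all genes did. Ly96, whose product MD-2 binds lipopolysaccharide on TLR4, had a difference of -0.47 (adjusted p = 0.222). Cd180, a receptor homologous to TLR4, had -0.14 (adjusted p = 0.801), and Ly86, its partner MD-1, had -0.57 (adjusted p = 0.184).

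**Figure D3:**
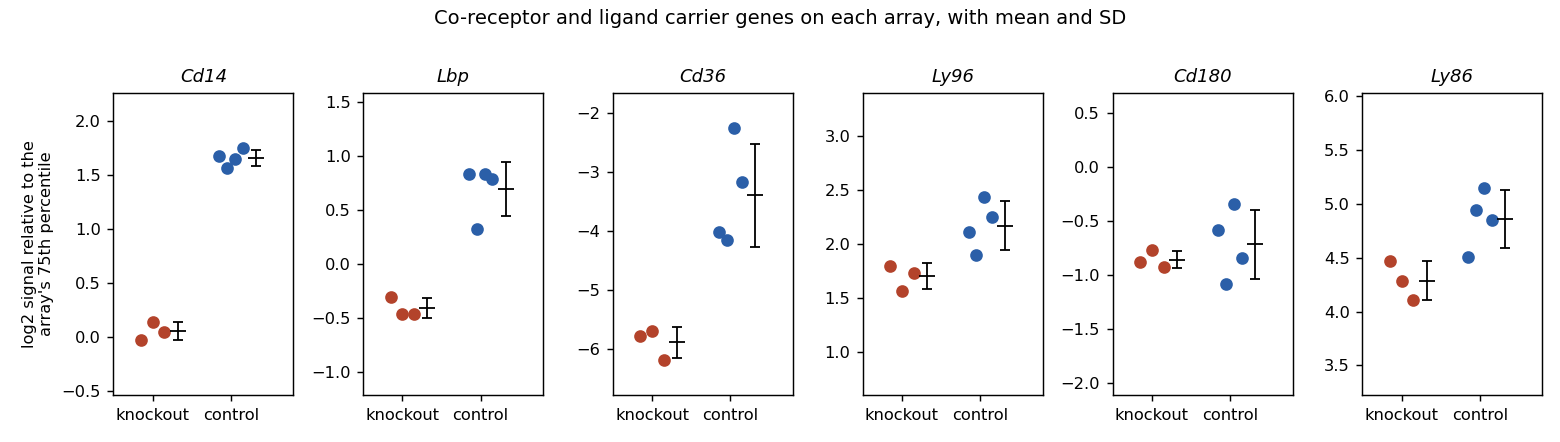
Log2 signal of the 6 co-receptor and ligand carrier genes relative to the array's 75th percentile, with the 3 arrays labelled knockout left of the 4 controls and a bar for mean and SD. All genes but Cd180 lie lower on every array labelled knockout than on any control, as 8.08% of all genes tested do. Cd14 lies between -0.027 and 0.14 against 1.57 to 1.75 in the controls.

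Some monocyte and macrophage genes were lower too. Of 9 genes of that list 5 were tested, of which 2 fell and 0 rose, against 1.38% and 1.49% of all genes. The median was -0.88, and 3 were lower at an unadjusted p under 0.05, where 7.35% of all genes were. Ly6c2, C1qa, Cd68 and Mertk were not tested. Among those that fell was Adgre1, an adhesion receptor of macrophages, with a difference of -0.88 (adjusted p = 0.0202). Leaving out control replicate 3, or replicate 1 or 3 of the arrays labelled knockout, ended its call (adjusted p = 0.0602, 0.0888 and 0.106). Csf1r, the receptor of macrophage colony-stimulating factor, had -0.30 (adjusted p = 0.472). The summed linear signal of the 5 genes ran between 37.6 and 49.0 times the 75th percentile in the arrays labelled knockout and between 51.7 and 67.3 times in the controls, and Csf1r made up 78.4% to 87.5% of it. Of 7 neutrophil genes Elane and Cebpe fell and 0 rose, against 1.38% and 1.49% of all genes, with a median of -2.21. All 7 were lower at an unadjusted p under 0.05. The call of Elane was lost in 9 of 22 other settings, among them with any control or with replicate 2 or 3 labelled knockout left out (adjusted p between 0.0594 and 0.153). The sums of that list were 32.1 to 45.4 in the arrays labelled knockout and 51.1 to 60.5 in the controls, and Mpo, which did not pass (difference -0.46, adjusted p = 0.146), made up 71.1% to 87.8% of them. The part of these cell types in the Cd14, Lbp and Cd36 differences was not tested. Not every marker list fell: 2 of 5 T cell genes rose and 0 fell, against 1.49% and 1.38% of all genes. Cd3e, Cd3g and Cd3d were not among those that rose. In the B cell list 0 of 4 tested genes passed.

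Inside the cell, limma called no gene in the lists from the folding of the receptors to their inhibitors. Of 9 genes for folding, trafficking and processing 0 passed, with 1 lower at an unadjusted p under 0.05 and a median of -0.16. The share of all genes lower at that level was 7.35%. Unc93b1, the chaperone that carries endosomal receptors, read 4.74, 4.88 and 4.76 on the arrays labelled knockout, against 5.05, 4.95, 5.19 and 5.11 on the controls. These groups lay apart by little, with a difference of -0.28 (interval -0.56 to -0.0065, adjusted p = 0.359). Slc15a3, a lysosomal histidine transporter, had -0.29 (adjusted p = 0.421).

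Of 7 adaptor genes 4 were tested and 0 passed, with 1 lower at an unadjusted p under 0.05 and a median of -0.18, and Sarm1, Pik3ap1 and Tasl were not tested. Myd88, the shared adaptor of most receptors, had a difference of -0.094 (adjusted p = 0.812). Ticam1, which encodes TRIF, had -0.26 (adjusted p = 0.635), and Ticam2, the bridging adaptor of TLR4, had -0.38 (adjusted p = 0.279). Of 16 kinases and ligases 0 passed, with 2 lower at an unadjusted p under 0.05 and a median of -0.024. For both lists, the share of all genes lower at that level was 7.35%. The largest differences were those of Ikbke, an interferon-inducing kinase, at -0.88 (adjusted p = 0.132), and of Irak2, a kinase of the MyD88 complex, at -0.61 (adjusted p = 0.162).

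Of 9 transcription factors 0 passed, with 1 lower at an unadjusted p under 0.05 and a median of -0.15. Irf5 stood at -0.43 (adjusted p = 0.317) and Nfkb1, the p105 and p50 subunit gene of NF-kappa-B, at -0.34 (adjusted p = 0.444). On the probe used for each gene, these lay furthest from 0 of that list. With the probes of a gene averaged, Nfkb1 had only -0.13 (adjusted p = 0.771). Of 12 inhibitors 0 passed, with 3 lower at an unadjusted p under 0.05 and a median of -0.066. For both lists, the share of all genes lower at that level was 7.35%. Il1rl1, the interleukin-33 receptor, had a difference of -1.11 (adjusted p = 0.0976), and Irak3, an inhibitory kinase of the family, had -0.63 (adjusted p = 0.0698). With its probes averaged, Il1rl1 had -1.02 (adjusted p = 0.401). Il1rl1 is also a gene of mast cells. Where 1.38% of all genes tested fell, 5 of 5 mast cell and basophil markers did (Cpa3, Ms4a2, Fcer1a, Mcpt8 and Prss34). Their summed linear signal ran between 0.559 and 0.727 times the 75th percentile in the arrays labelled knockout and between 8.94 and 20.6 times in the controls, and in the arrays labelled knockout Ms4a2 did not stand well above background in any of 3, its call being lost with the common floor (adjusted p = 0.0992). The part of those cells in the Il1rl1 difference was not tested.

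Among 15 cytokines and other targets that these receptors induce, 10 were tested. Of these, Il6 fell and 0 rose, against 1.38% and 1.49% of all genes. Il6 read -4.55, -5.65 and -4.19 on the arrays labelled knockout, against -3.51, -2.52, -3.24 and -2.69 on the controls. The groups lay apart at dim signals, and Il6 fell 3.50-fold (log2 difference -1.81, SE 0.38, limma adjusted p = 0.0472). The call was lost in 13 of 22 other settings, with adjusted p up to 0.260, and among them when replicate 1, 2 or 3 labelled knockout (adjusted p = 0.107, 0.0769 and 0.0519) or control replicate 2, 3 or 4 (adjusted p = 0.0997, 0.0863 and 0.113) was left out. Of the 10 tested genes, 3 were higher and 2, with Il6, lower at an unadjusted p under 0.05, where 6.14% of all genes were higher and 7.35% lower. The higher ones, named with their values known, were Ccl5, Tnf and Il12a. Ccl5, a chemokine for T cells, read 2.88, 2.53 and 2.97 on the arrays labelled knockout, against 1.56, 1.73, 2.33 and 1.55 on the controls. Its groups lay apart, with a difference of 1.00 (adjusted p = 0.0587), and it passed in 9 of 22 other settings. Tnf lay apart as well, with a difference of 0.56 (adjusted p = 0.134), and Il12a overlapped at 0.53 (adjusted p = 0.291). Il1a, Il12b, Ifnb1, Cxcl1 and Cxcl2 were not tested. Of the 74 pathway genes other than the receptors, 66 were tested, with a median of -0.15. Of these, 4 fell and 0 rose, against 1.38% and 1.49% of all genes.

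**Figure D4:**
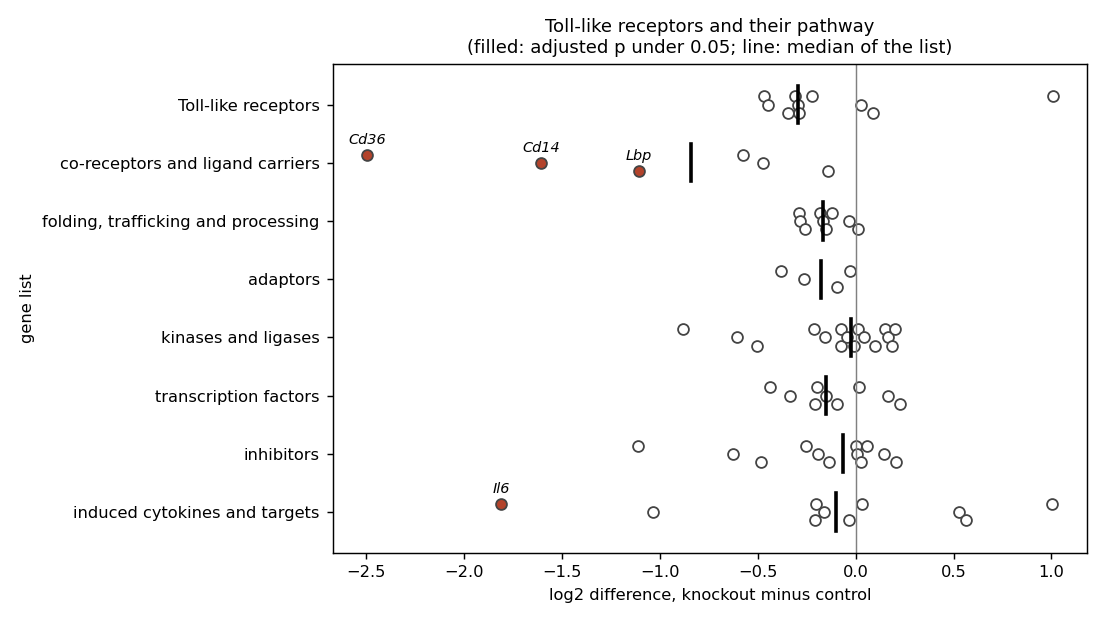
Log2 difference, arrays labelled knockout minus controls, of each tested gene (points) of the Toll-like receptor family and of 7 lists of pathway genes, with the median of each list as a line and genes with an adjusted p under 0.05 filled and named. Filled points are Cd36, Cd14 and Lbp among the co-receptors and Il6 among the induced targets, and no receptor is filled.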

How the data were processed

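Amplified RNA labelled with Cy3, per the labels' protocols, was hybridised to 7 arrays of 62976 spots, 3671 of them controls. Spot intensity is as deposited: per the file headers, the authors' scans were read by Agilent Feature Extraction 10.7.3.1. The deposited series table holds log2 values centred per probe. Its scale and direction are not stated, but differences between arrays correlated at 0.99999 or more with the scanner values, with a slope of 1.00000. Column medians lay between -0.020 and 0. It served as an alternative.

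The processed signal was put on the log2 scale and each array's 75th percentile (2671 to 3825 intensity units) was subtracted, and spots of a probe were averaged without those the scanner software called outliers. The filter kept 34133 of 55681 probes, those well above background in 3 or more of the 7 arrays. RefSeq accessions, without versions, named 26413 of the 55681 probes (47.4%) through a table of assembly GRCm38.p6; the array design carries coordinates of an earlier build. Each gene took its tested probe of highest mean. The 2 groups were fitted in limma 3.58.1 (lmFit, then eBayes; R 4.3.3) with no block and with Benjamini-Hochberg adjustment over all genes at 0.05. The fit was tested on simulated data.

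Named genes are all members, Gata2, Tlr8 and Tlr12, and of each pathway list up to 4 genes per direction past the threshold, or the 2 of largest difference where none passed; other genes were picked with their values known. One monocyte and macrophage gene is not reported here by name. Members and lists were chosen with earlier results of these data known. Normexp used the median signal. All arrays lay on 1 slide from 1 scan, so no slide block was possible. Deviations of arrays sharing a replicate number correlated between -0.17 and -0.049, which showed no pairing by number but cannot exclude one. Alternatives covered background, normalization, filters, outlier spots, probes, variance model, array weights, floors, a block for the replicate number, and leaving out each array. The number of arrays limits the precision.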

Additional observations from a re-analysis of the deposited data

Results flagged for a closer look

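Among the controls of 47 genes named in the text, 6 held an array far from the other 3 by Dixon's criterion, which chance meets in about 1 of 20 groups. In 4 of them it was control replicate 2. Lbp read 0.33 on it and between 0.78 and 0.84 on the other controls. Ikbke read -2.20 on it, against -1.43 to -1.40. Irf5 read 3.77 on it, against 3.26 to 3.30. Tnf read 0.15 on it, against 0.42 to 0.48. Irf8 read 6.02 on control replicate 1, against 6.10 to 6.11, and Mpo read 5.22 on control replicate 4, against 5.43 to 5.45. The difference of Ikbke passed without control replicate 2 (-1.08, adjusted p = 0.0252) and also with array weights on all 7 arrays (-0.98, adjusted p = 0.0218).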

How the results depend on the processing

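In 22 other settings, no Toll-like receptor gene was called lower, and none higher except 1 (Tlr5) with array weights. Of the differences of the members and Tlr12 in these settings, 229 kept direction and side of the threshold. With the replicate block, the endosomal median was 0.061 and Tlr3 0.26, both as without control replicate 4, since that array then has a level of its own. The block lost the calls of Lbp, Cd36 and Il6 (adjusted p = 0.0942, 0.134 and 0.260) and those of Adgre1, Elane and Fcer1a (adjusted p = 0.113, 0.216 and 0.0677), and kept those of Gata2, Cd14, Cebpe, Cpa3, Ms4a2, Mcpt8 and Prss34. Leaving out 1 array moved the surface median between -0.43 and -0.24 and the endosomal median between -0.33 and 0.061. Differences near 0 changed sign. With array weights Tlr9 was -0.054 and Tlr12 0.0070. With 1 array left out, Tlr9 ran between -0.057 (without control replicate 2) and 0.080, Tlr12 between -0.21 and 0.0080 (without control replicate 2), Tlr11 between -0.077 (without replicate 1 labelled knockout) and 0.28, Tlr3 between -0.48 and 0.26 (without control replicate 4), and Batf3 between -0.017 (without control replicate 2) and 0.19. Others kept their sign but moved by over 1.5 times: Tlr4 ran between -0.53 (without replicate 2 labelled knockout) and -0.10 (without replicate 3), Tlr7 between -0.45 and -0.10 (the same arrays) and Tlr6 between -0.40 and -0.14 (without replicate 1 labelled knockout). Il1rl1 passed with normexp, no filter and array weights, and Irak3 with no filter, array weights and without control replicate 2 (adjusted p between 0.0161 and 0.0493). With the probes of a gene averaged, Il1rl1 was -1.02 (adjusted p = 0.401), Nfkb1 -0.13 (adjusted p = 0.771) and Csf1r -0.17 (adjusted p = 0.716). Over all genes, 217 were higher and 201 lower, against 365 and 2483 without a filter, 382 and 374 with array weights, 86 and 95 with the replicate block, 224 and 311 with each array's own floor (chosen after seeing the data), 195 and 283 with normexp, and 88 to 224 and 105 to 178 with 1 array left out. For probes near background, such as Tlr3, Tlr5, Cd36 and Il6, signal limits what can be measured.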

Other observations

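The genes whose centred profile over the 7 arrays lay closest to that of Tlr2, by root mean square difference in log2 units, were Btg1 (0.053), Slc2a6 (0.060) and Arpc5 (0.065). Closest to Tlr5 were Adam23 (0.186), Eif4ebp2 (0.191) and Kmt2e (0.229). None of these 6 genes passed the limma test. The likeness takes in the group difference, so this follows largely from their choice beside Tlr2 and Tlr5, which did not pass.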
